A study of Mus musculus with 95 samples.

Results

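Dbp, Tef and Hlf encode the PAR bZIP transcription factors (basic leucine zipper proteins with a proline and acidic amino acid-rich domain), a family known as output factors of the circadian clock. They were taken by symbol from the annotated array table, which held 1 probe set for each, so the members are 3 of 16464 genes with a symbol, or 3 of 17306 probe sets. The study measured liver gene expression with 95 Affymetrix arrays in male C57BL/6 mice aged 10 weeks and weighing 21 to 27 g, given a compound or its vehicle by oral gavage. Its title gives the subject as steatosis, a build-up of fat in the liver, caused by the drugs. The values are log2 expression levels made by the authors with RMA, on which a difference of 1 is a doubling, and a level of 1 probe set is not compared with that of another.

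The 21 groups were sampled on days 1, 4 and 11. Amiodarone, an antiarrhythmic drug, has groups at 60 mg/kg sampled on all 3 days and groups at 6.7 and 20 mg/kg sampled on day 11. Valproic acid, an antiepileptic drug, has groups at 500 mg/kg sampled on all 3 days, with added day 11 groups at 125 and 250 mg/kg. Tetracycline, an antibiotic, has groups at 133 mg/kg sampled on all 3 days and groups at 14.8 and 44 mg/kg sampled on day 11. Amiodarone and valproic acid share their controls, mice given phosphate-buffered saline (PBS), so their differences from it are not independent of each other. Tetracycline had mice given purified water with ascorbic acid. A group holds 4 arrays on days 1 and 4, and 5 on day 11. Nothing in the labels says that the arrays of a group come from separate animals, and the p-values speak for the spread between these samples alone, which may be technical.

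In the clock, the activator pair CLOCK and BMAL1 (encoded by Arntl) binds E-box sequences and drives Dbp as well as the genes of its own repressors. DBP, TEF and HLF then bind D-box sequences in their target genes, where the repressor NFIL3 competes with them. In mouse liver the PAR bZIP factors are known for driving genes of drug detoxification and fatty acid handling, among them the nuclear receptor genes Nr1i3 and Ppara, and the Dbp message rises and falls strongly over the day. The labels used here give no hour of tissue collection.

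The start regions of the 3 genes are shown because their messages moved partly together, as described further on. Each window runs from 250 bases before to 50 bases after a RefSeq transcript start (build GRCm38.p6). All 3 genes matched by symbol, Tef with 2 starts. The Dbp start used lies inside the gene span given further on, not at its first base. Both strands were searched for the E-box CACGTG, its variant CACGTT (which reads AACGTG on the opposite strand), the D-box forms TTATGTAA (which reads TTACATAA on the opposite strand) and TTACGTAA, and the cyclic AMP response element TGACGTCA. Capitals mark the matches, none of which overlap.
Dbp, chr7:45704997-45705296, plus strand: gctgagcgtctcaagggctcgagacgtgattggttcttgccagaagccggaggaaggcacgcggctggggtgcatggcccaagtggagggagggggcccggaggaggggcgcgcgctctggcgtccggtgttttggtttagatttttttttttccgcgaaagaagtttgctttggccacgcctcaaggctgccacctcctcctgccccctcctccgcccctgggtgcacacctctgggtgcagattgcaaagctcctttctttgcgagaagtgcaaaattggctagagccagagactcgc
Tef start 1, chr15:81802423-81802722, plus strand: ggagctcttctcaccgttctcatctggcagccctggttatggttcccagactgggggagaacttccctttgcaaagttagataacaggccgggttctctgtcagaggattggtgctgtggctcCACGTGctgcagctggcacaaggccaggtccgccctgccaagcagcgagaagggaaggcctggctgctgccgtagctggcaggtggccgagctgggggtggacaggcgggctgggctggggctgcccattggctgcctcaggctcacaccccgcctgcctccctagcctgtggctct
Tef start 2, chr15:81811164-81811463, plus strand: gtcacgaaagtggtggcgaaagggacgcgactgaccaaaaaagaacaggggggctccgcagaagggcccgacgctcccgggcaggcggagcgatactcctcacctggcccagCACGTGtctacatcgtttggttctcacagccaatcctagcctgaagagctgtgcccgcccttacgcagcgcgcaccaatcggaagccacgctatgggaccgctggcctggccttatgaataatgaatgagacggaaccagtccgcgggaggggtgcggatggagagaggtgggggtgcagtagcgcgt
Hlf, chr11:90390868-90391167, minus strand: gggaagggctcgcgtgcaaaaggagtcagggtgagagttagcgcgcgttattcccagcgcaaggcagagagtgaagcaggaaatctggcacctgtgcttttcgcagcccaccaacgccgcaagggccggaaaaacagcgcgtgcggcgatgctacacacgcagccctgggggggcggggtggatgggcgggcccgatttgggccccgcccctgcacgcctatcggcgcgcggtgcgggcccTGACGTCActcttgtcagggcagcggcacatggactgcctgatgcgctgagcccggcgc
Each Tef window held 1 E-box, beginning 127 bases before the first start and 138 bases before the second. The Hlf window held 1 cyclic AMP response element, beginning 9 bases before its start, and the Dbp window held none of these letters. Of all 32851 windows in the table, 7.15% held the E-box, 4.68% its variant, 0.938% and 0.119% the D-box forms in the order given, and 1.79% the cyclic AMP response element. A match describes letters only, and a window without one says nothing of a factor.

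By the same build, the Dbp gene (Entrez 13170) spans chr7:45705100-45710203, Tef (Entrez 21685) spans chr15:81802673-81826863 and Hlf (Entrez 217082) spans chr11:90336535-90390917. The 3 probe sets were above the array median on every array. Dbp levels ran between 7.13 and 9.45 over the 95 arrays, with a pooled SD within groups of 0.23 and an SD of group means of 0.36. Tef levels ran between 5.02 and 6.06, with SDs of 0.14 within groups and 0.18 between group means. Hlf levels ran between 5.43 and 6.82, with SDs of 0.22 within groups and 0.19 between group means. The spread of group means was above that within groups for Dbp and Tef, and below it for Hlf.

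Across all 15 treated groups, 6 of the 45 differences from vehicle passed the test, and all 6 were lower than vehicle. The test was limma's moderated test in a fit of all 95 arrays, adjusted by Benjamini-Hochberg over the 16464 genes of a comparison, and called means an adjusted p under 0.05. Dbp fell in valproic acid livers at 500 mg/kg on days 1 and 4, Tef fell on day 1 of valproic acid and day 4 of amiodarone at 60 mg/kg, and Hlf fell on day 4 of both drugs. Tetracycline gave no call. Over the 15 comparisons, between 0% and 15.7% of all genes were called either way. Of all genes, 7.73% and 1.04% were called lower on days 1 and 4 of valproic acid at 500 mg/kg. On day 4 of amiodarone at 60 mg/kg 2.2% were. All fold changes below are treated over vehicle, with standard errors (SE) from the fit.

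**Figure D1:**
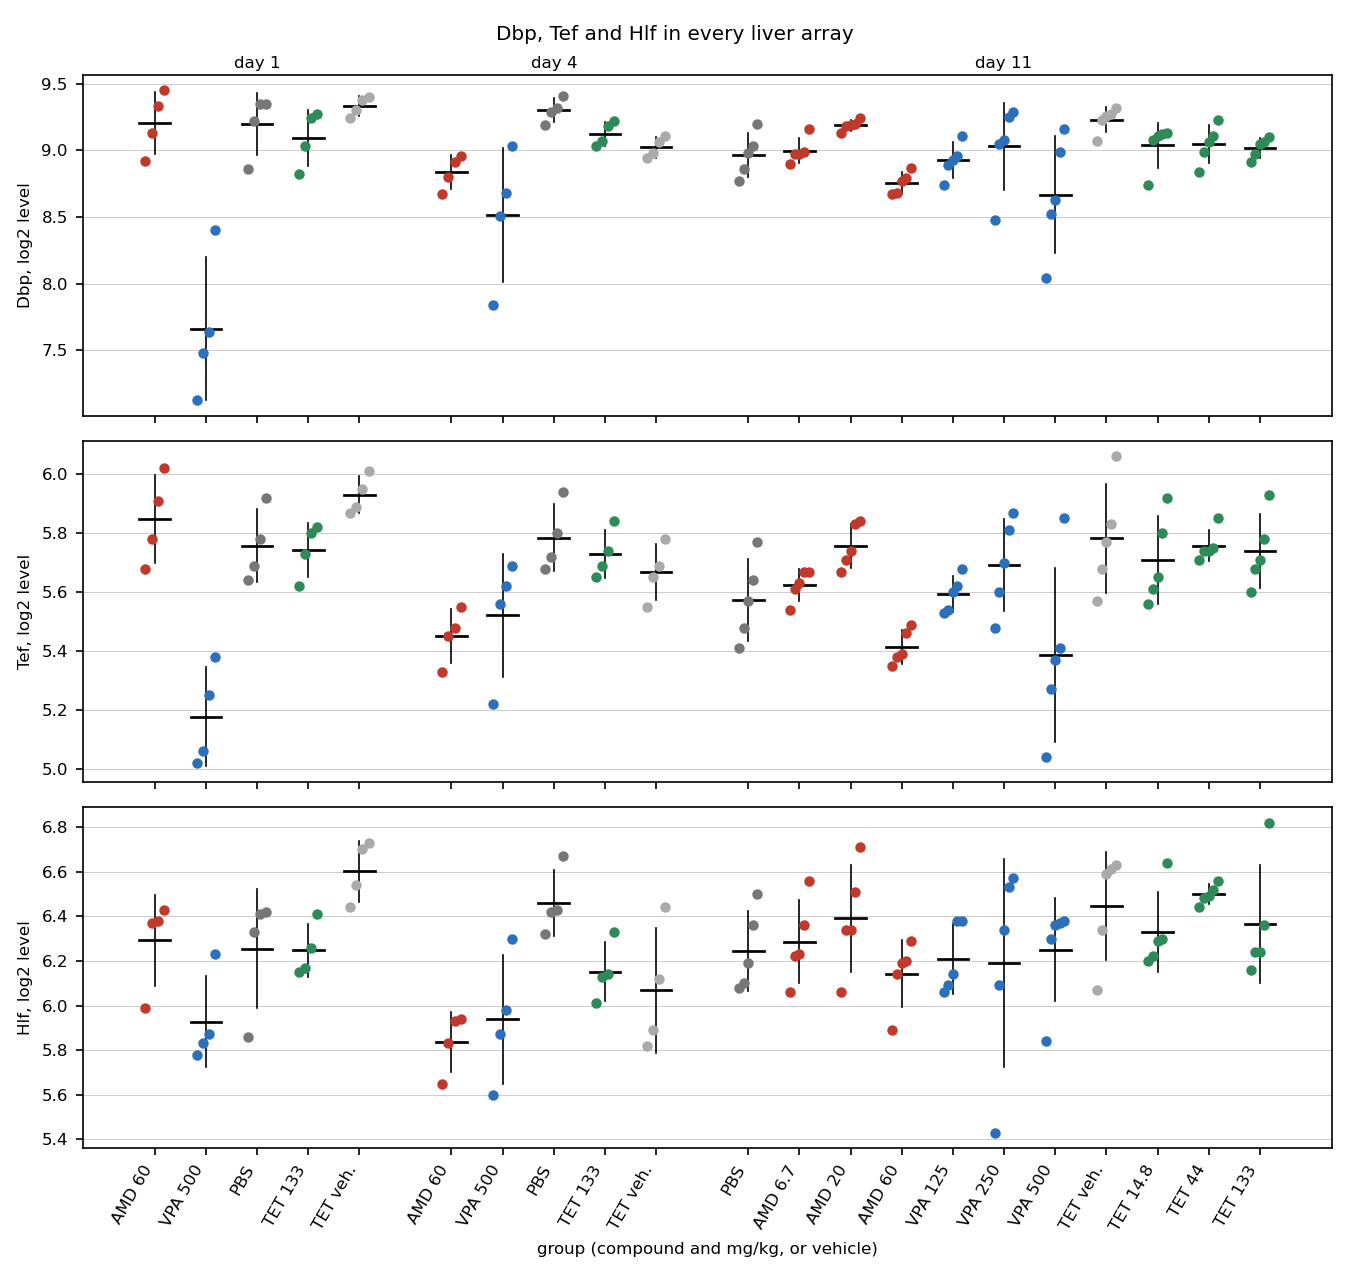
Log2 level of Dbp, Tef and Hlf (vertical axes, 1 panel per gene) on every array, by group along the horizontal axis, with days 1, 4 and 11 set apart and doses in mg/kg. Points are arrays drawn in order of value, bars are group means and vertical lines are ± SD. Valproic acid at 500 mg/kg on day 1 has the lowest group mean of Dbp (7.66) and Tef (5.18), and amiodarone at 60 mg/kg on day 4 that of Hlf (5.84).

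Dbp fell farthest in livers of mice given valproic acid at 500 mg/kg, on day 1. Dbp, the member with the steepest daily rhythm known in liver, had levels of 7.13, 7.48, 7.64 and 8.40 in day 1 valproic acid livers, against 8.86, 9.22, 9.35 and 9.35 in PBS livers. Every treated array was below every PBS array, and the treated arrays were spread wider (SD 0.53 in valproic acid livers and 0.23 in PBS livers, n = 4 each). The log2 fold change was -1.53 ± 0.16, a fold of 0.346 (95% interval of the log2 value -1.85 to -1.22, adjusted p = 1.5e-12, limma). By size of change Dbp ranked 103 among all 16464 genes.

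Tef, whose protein binds the same D-box as DBP, had levels of 5.02, 5.06, 5.25 and 5.38 in day 1 valproic acid livers, against 5.64, 5.69, 5.78 and 5.92 in PBS livers. These groups did not overlap either. The log2 fold change was -0.58 ± 0.10, a fold of 0.669 (adjusted p = 1.7e-06, limma). Hlf, the third D-box binding member, had levels of 5.78, 5.83, 5.87 and 6.23 in day 1 valproic acid livers, against 5.86, 6.33, 6.41 and 6.42 in PBS livers. The groups overlapped, since 2 treated arrays lay above 1 low PBS array, number 025, and the log2 fold change of -0.32 ± 0.15 did not pass (adjusted p = 0.17, limma). Without array 025 it was -0.46 and passed (adjusted p = 0.048, limma). On this day 2 of 3 members were called lower, where 7.73% of all genes were called lower and 15.7% either way, and the 2 members without overlap stood beside 6.93% of all genes with every treated array below every PBS array.

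On day 4 Dbp was still lower in valproic acid livers, with levels of 7.84, 8.51, 8.68 and 9.03, against 9.19, 9.29, 9.32 and 9.41 in PBS livers. The groups did not overlap, and array 004 was the lowest by a wide margin. The log2 fold change was -0.79 ± 0.16, a fold of 0.58 (adjusted p = 9e-04, limma), and without array 004 it was -0.56 (adjusted p = 0.05, limma), which rounds to the threshold and did not pass. It did not pass in a fit of only the 8 arrays compared either (-0.79, adjusted p = 0.084, limma).

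Hlf had levels of 5.60, 5.87, 5.98 and 6.30 in day 4 valproic acid livers, against 6.32, 6.42, 6.43 and 6.67 in PBS livers, with no overlap but almost none to spare between the highest treated and the lowest PBS array. The log2 fold change was -0.52 ± 0.15, a fold of 0.697 (adjusted p = 0.048, limma). This call lies near the threshold and was lost when any 1 of 7 of the 8 arrays was left out (004, 068 or 092 of the treated, 040, 041, 044 or 087 of the PBS livers), with log2 fold changes between -0.64 and -0.41 and adjusted p between 0.013 and 0.23 over the 8. It was also lost in a fit of only the arrays compared (adjusted p = 0.096, limma), with arrays centred on their median (adjusted p = 0.056, limma) and with blocks of sample numbers (adjusted p = 0.1, limma). Tef had levels of 5.22, 5.56, 5.62 and 5.69 in valproic acid livers, against 5.68, 5.72, 5.80 and 5.94 in PBS livers. Its highest treated array lay just above the lowest PBS array, and its log2 fold change of -0.26 ± 0.10 did not pass (adjusted p = 0.16, limma). On day 4, 2 of 3 members were called lower, where 1.04% of all genes were called lower and 2.36% either way, and 3.84% of all genes had every treated array below every PBS array.

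On day 11 none of the 3 members was called at 500 mg/kg of valproic acid (2 had an unadjusted p under 0.05, limma), where 9.03% of all genes were called. The 5 treated arrays differed widely, with Dbp at 8.04, 8.52, 8.63, 8.99 and 9.16 in valproic acid livers, against 8.77, 8.86, 8.98, 9.03 and 9.20 in PBS livers. Tef was at 5.04, 5.27, 5.37, 5.41 and 5.85 in valproic acid livers, against 5.41, 5.48, 5.57, 5.64 and 5.77 in PBS livers. For both genes the same array, number 049, was the lowest and the same array, number 028, the highest. The log2 fold changes were -0.30 ± 0.14 for Dbp (adjusted p = 0.21, limma) and -0.19 ± 0.09 for Tef (adjusted p = 0.18, limma). Without array 028 that of Tef was -0.30 and passed (adjusted p = 0.0098, limma). Hlf did not differ beyond its spread, at 0.01 ± 0.14 (95% interval -0.27 to 0.28, adjusted p = 0.99, limma).

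The Dbp difference from PBS shrank over the days, and this was tested on the differences themselves. The log2 fold change of Dbp was higher on day 4 than on day 1 by 0.75 ± 0.22 (adjusted p = 0.028, limma) and higher on day 11 than on day 1 by 1.23 ± 0.21 (adjusted p = 6.7e-06, limma). Between days 11 and 4 it differed by 0.49 ± 0.21, which did not pass (adjusted p = 0.27, limma). That of Tef was higher on day 11 than on day 1 by 0.39 ± 0.13 (adjusted p = 0.031, limma) and differed between days 4 and 1 by 0.32 ± 0.14, which did not pass (adjusted p = 0.18, limma). No difference between days passed for Hlf. These differences hold changes of the PBS livers too. Between days 4 and 11 mean Dbp went from 8.51 to 8.67 in valproic acid livers and from 9.30 to 8.97 in PBS livers. Mean Tef went from 5.52 to 5.39 and from 5.78 to 5.58. The PBS differences of -0.33 ± 0.15 and -0.21 ± 0.09 did not pass (adjusted p = 0.55 and 0.53, limma). Each had an unadjusted p under 0.05 (limma). Between days 1 and 11 mean Dbp went from 7.66 to 8.67 in valproic acid livers and from 9.19 to 8.97 in PBS livers. Mean Tef went from 5.18 to 5.39 and from 5.76 to 5.58. These PBS differences of -0.22 ± 0.15 and -0.18 ± 0.09 did not pass (adjusted p = 0.77 and 0.65, limma). That of Tef had an unadjusted p under 0.05 (limma). Over all genes, 3.04% were called higher and 6.07% either way on day 4 against day 1, 6.97% higher and 12.3% either way on day 11 against day 1, and 2.06% either way on day 11 against day 4. The Dbp difference between days 4 and 1 did not pass without 1 of 7 of the 16 arrays (003, 008, 023, 025, 079, 087 or 092, log2 values 0.57 to 0.99 over the 16), and that of Tef between days 11 and 1 without 1 of 7 of 18 (020, 025, 028, 079, 080, 082 or 090, log2 values 0.27 to 0.48 over the 18).

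**Figure D2:**
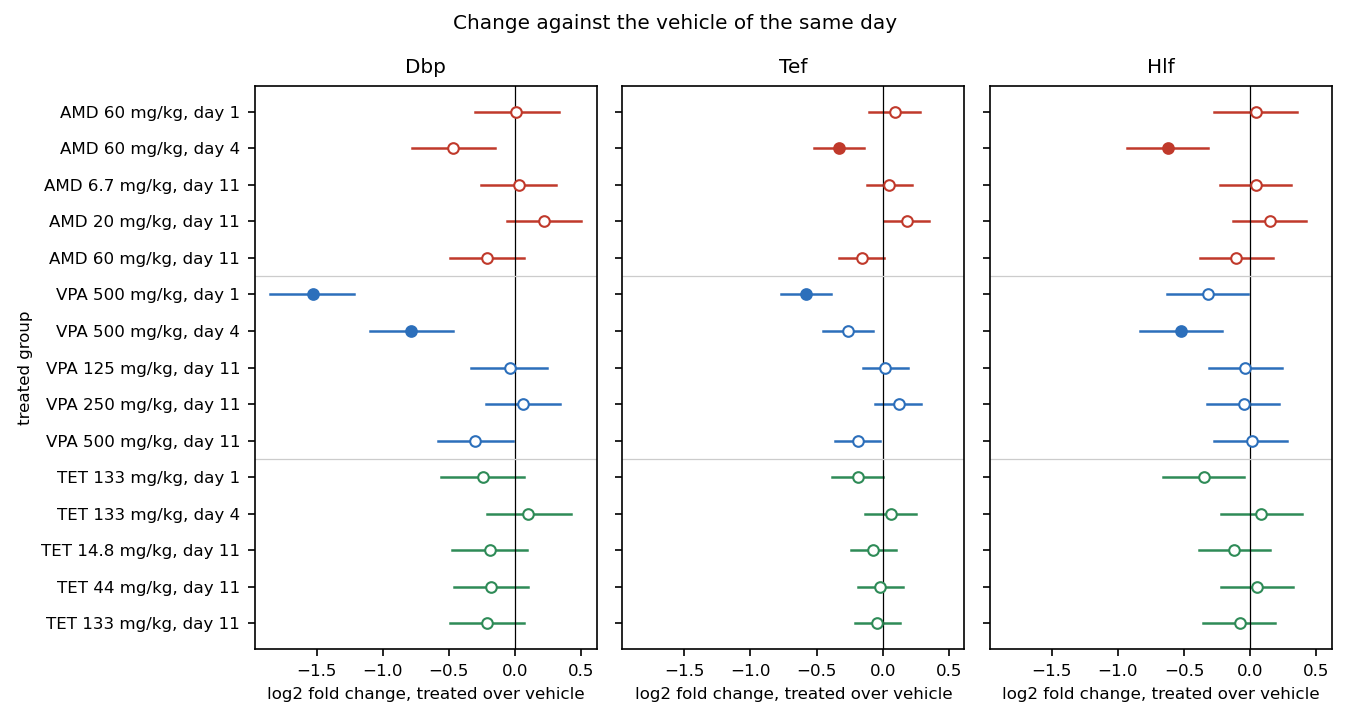
Log2 fold change over the vehicle of the same day (horizontal axes) of Dbp, Tef and Hlf in the 15 treated groups (rows). Lines are 95% intervals from the fit and filled points passed at an adjusted p under 0.05. The 6 filled points are all left of 0, and the largest is Dbp in valproic acid livers on day 1 (-1.53).

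Amiodarone at 60 mg/kg gave its changes on day 4, when Hlf and Tef fell. Hlf had levels of 5.65, 5.83, 5.93 and 5.94 in day 4 amiodarone livers, against 6.32, 6.42, 6.43 and 6.67 in PBS livers. The 2 groups were clearly apart, and the log2 fold change was -0.62 ± 0.15, a fold of 0.65 (adjusted p = 0.0044, limma), with values between -0.67 and -0.55 when 1 array was left out. Tef had levels of 5.33, 5.45, 5.48 and 5.55 in amiodarone livers, against 5.68, 5.72, 5.80 and 5.94 in PBS livers, again with no overlap. Its log2 fold change was -0.33 ± 0.10, a fold of 0.794 (adjusted p = 0.019, limma), and this did not pass without array 041 (-0.28, adjusted p = 0.11, limma) or array 069 (-0.29, adjusted p = 0.1, limma), nor with blocks of sample numbers in the fit (-0.28, adjusted p = 0.092, limma).

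Dbp had levels of 8.67, 8.80, 8.91 and 8.96 in day 4 amiodarone livers, against 9.19, 9.29, 9.32 and 9.41 in PBS livers. All treated arrays were below all PBS arrays, yet the log2 fold change of -0.47 ± 0.16 did not pass (fold 0.724, adjusted p = 0.063, limma). It passed in a fit of only the 8 arrays compared (adjusted p = 0.0096, limma). Of the 3 members 2 were called lower, where 2.2% of all genes were called lower and 6.21% either way, and the 3 members without overlap stood beside 5.24% of all genes. The same 4 PBS arrays served both drugs on day 4, so the lower values of the 2 drugs share them. The PBS group of that day had the second highest mean of Dbp (9.30) and the third highest of Tef (5.78) and Hlf (6.46) among the 21 groups.

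On days 1 and 11 amiodarone at 60 mg/kg gave no call among the members (0 of 3 at an unadjusted p under 0.05 on either day, limma), where 0.796% and 7.05% of all genes were called. On day 1 the log2 fold changes were 0.01 ± 0.16 for Dbp, 0.09 ± 0.10 for Tef and 0.04 ± 0.15 for Hlf. On day 11 they were -0.21 ± 0.14 for Dbp, -0.16 ± 0.09 for Tef and -0.11 ± 0.14 for Hlf, with adjusted p between 0.32 and 0.79 (limma). The change of Hlf on day 4 differed from that on day 1 by -0.66 ± 0.22, which did not pass (adjusted p = 0.17, limma), so the day 4 change was not shown to be particular to that day. None of the 9 differences between days passed for amiodarone (4 had an unadjusted p under 0.05, limma), where 0.541%, 0.109% and 0% of all genes were called for days 4 against 1, 11 against 1 and 11 against 4.

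Set directly against each other at their highest doses, the 2 drugs that share PBS differed on day 1. Dbp had levels of 8.92, 9.13, 9.33 and 9.45 in amiodarone livers (60 mg/kg), against the 7.13 to 8.40 of valproic acid livers (500 mg/kg), a log2 difference of 1.55 ± 0.16 (adjusted p = 6.2e-13, limma). Tef had levels of 5.68, 5.78, 5.91 and 6.02 in amiodarone livers, against 5.02 to 5.38 in valproic acid livers, a log2 difference of 0.67 ± 0.10 (adjusted p = 3.8e-08, limma). The groups did not overlap for either gene, and the share of all genes without overlap was not counted for this comparison. Hlf differed by 0.36 ± 0.15 and did not pass (adjusted p = 0.1, limma), though it passed without array 013 (0.46, adjusted p = 0.042, limma) or array 023 (0.46, adjusted p = 0.04, limma). Of all genes 8.28% were called higher in amiodarone livers and 16.2% either way. On days 4 and 11 no member was called between the 2 drugs, where 8.55% and 8.06% of all genes were. The log2 differences lay between -0.11 and 0.32, the latter for Dbp on day 4 (unadjusted p = 0.046, limma).

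Tetracycline at 133 mg/kg did not give a call for any member on any day, where 0.65%, 0% and 0% of all genes were called on days 1, 4 and 11. For 2 of the members the day 1 arrays lay below those of their vehicle. That vehicle group had the highest mean of the 21 groups for Hlf (6.60) and Tef (5.93). The tetracycline means were 6.25 for Hlf and 5.74 for Tef, beside 6.25 and 5.76 in PBS livers of day 1. Hlf had levels of 6.15, 6.17, 6.26 and 6.41 in tetracycline livers, against 6.44, 6.54, 6.70 and 6.73 in vehicle livers. Every tetracycline array was below every vehicle array, but the log2 fold change of -0.35 ± 0.15 did not pass (adjusted p = 0.33, limma). Tef had levels of 5.62, 5.73, 5.80 and 5.82 in tetracycline livers, against 5.87, 5.89, 5.95 and 6.01 in vehicle livers. It too was without overlap and did not pass, at -0.19 ± 0.10 (adjusted p = 0.44, limma), and 3.19% of all genes had every treated array below every vehicle array. The Dbp groups overlapped, at -0.24 ± 0.16 (adjusted p = 0.63, limma). On days 4 and 11 the 6 log2 fold changes lay between -0.21 and 0.10. At an unadjusted p under 0.05 (limma), 1 of 3 members would count on day 1, Hlf, and 0 on days 4 and 11. None of the 9 differences of the tetracycline effect between days passed (1 had an unadjusted p under 0.05, limma), where 0% of all genes were called in each.

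The lower doses, sampled on day 11, gave no call for the 3 members. After PBS or valproic acid at 125, 250 or 500 mg/kg, the mean Dbp level was 8.97 ± 0.17, 8.93 ± 0.13, 9.03 ± 0.32 and 8.67 ± 0.44 (SD, n = 5 each). After PBS or amiodarone at 6.7, 20 or 60 mg/kg, it was 8.97 ± 0.17, 9.00 ± 0.10, 9.19 ± 0.04 and 8.76 ± 0.08 (SD, n = 5 each). After vehicle or tetracycline at 14.8, 44 or 133 mg/kg, it was 9.23 ± 0.10, 9.04 ± 0.17, 9.05 ± 0.14 and 9.02 ± 0.08 (SD, n = 5 each). For all 3 drugs the mean of Dbp was lowest at the highest dose, and for none did it fall at each step of dose. The 3 tetracycline dose means lay closer together than the SD of any of these 3 groups. The 18 log2 fold changes of the members at the low and mid doses lay between -0.19 and 0.22, and none passed (1 had an unadjusted p under 0.05, limma). The share of all genes called was 0% and 0.322% at 6.7 and 20 mg/kg of amiodarone. It was 0.0547% and 4.26% for valproic acid at 125 and 250 mg/kg, and 0% and 0.0243% at 14.8 and 44 mg/kg of tetracycline. The slopes over dose rank were called for 0 of 3 members with each drug (0 of 9 at an unadjusted p under 0.05, limma), where 7.02%, 9.94% and 0% of all genes were called for amiodarone, valproic acid and tetracycline. In the valproic acid group at 250 mg/kg, array 067 was the lowest for all 3 members, with Dbp at 8.48, Tef at 5.48 and Hlf at 5.43, the lowest Hlf level of all 95 arrays.

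The vehicle groups differed among themselves by amounts near those of the smaller treatment effects, and none of the 27 differences passed (9 had an unadjusted p under 0.05, limma). The largest was in Hlf, which had levels of 5.82, 5.89, 6.12 and 6.44 in the tetracycline vehicle on day 4, against 6.44, 6.54, 6.70 and 6.73 on day 1. The log2 difference was -0.53 ± 0.15 (adjusted p = 0.071, limma), and it passed without array 035 (-0.66, adjusted p = 0.024, limma). The tetracycline vehicle stood above PBS on day 1 for Hlf, at 6.60 ± 0.14 and 6.25 ± 0.27 (SD, n = 4 each), and below it on day 4, at 6.07 ± 0.28 and 6.46 ± 0.15 (SD, n = 4 each). These log2 differences of 0.35 ± 0.15 and -0.39 ± 0.15 did not pass (adjusted p = 0.42 and 0.56, limma). For Dbp on day 4, every tetracycline vehicle array (8.94 to 9.11) was below every PBS array (9.19 to 9.41). This log2 difference of -0.28 ± 0.16 did not pass (adjusted p = 0.81, limma). Hlf on day 1 was without overlap between the vehicles too, as were Dbp and Tef in the tetracycline vehicle, days 4 against 1. The share of all genes without overlap was not counted between vehicle groups. Of all genes, 0.0911%, 0.0121% and 0% were called between tetracycline vehicle and PBS on days 1, 4 and 11. Within PBS, 0.0121%, 0% and 0% were called for days 4 against 1, 11 against 1 and 11 against 4, and within the tetracycline vehicle 0.784%, 0% and 0%.

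Ordered by mean, the tetracycline vehicle of day 1 was the highest of the 21 groups for all 3 members, at 9.33 for Dbp, 5.93 for Tef and 6.60 for Hlf. The lowest 3 groups of Dbp were those of valproic acid at 500 mg/kg, with means of 7.66 on day 1, 8.51 on day 4 and 8.67 on day 11. The lowest 3 of Tef were valproic acid at 500 mg/kg on day 1 (5.18) and day 11 (5.39) and amiodarone at 60 mg/kg on day 11 (5.41). The lowest 3 of Hlf were amiodarone at 60 mg/kg on day 4 (5.84) and valproic acid at 500 mg/kg on day 1 (5.93) and day 4 (5.94). Of the 20 neighbouring pairs in the order, the gap between means was wider than the pooled SD of the pair in 1 for Dbp, between valproic acid on days 4 and 1, and in 0 for Tef and Hlf. The ranges of the arrays overlapped in all neighbouring pairs of each gene.

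Arrays of 1 group tended to deviate from their group mean in the same direction for Dbp and Tef. Over the 95 arrays the deviations correlated with Pearson's r = 0.54 (p = 0.00011, permutation within groups, adjusted over the 3 pairs 0.00033) and Spearman's rho = 0.39 (p = 0.0012, permutation). For Dbp and Hlf, r was 0.36 (p = 0.0055, permutation, adjusted 0.0082) and rho was 0.35 (p = 0.002, permutation). For Tef and Hlf, r was 0.30 (p = 0.02, permutation, adjusted 0.02) and rho was 0.18 (p = 0.14, permutation). Without the 2 arrays farthest from the median, r was 0.52, 0.43 and 0.25 in the order given. Without the 13 arrays of valproic acid at 500 mg/kg, 82 arrays gave r = 0.35 for Dbp and Tef (p = 0.013, permutation), 0.45 for Dbp and Hlf (p = 0.0036, permutation) and 0.21 for Tef and Hlf (p = 0.15, permutation). The values of an array share its RNA and its normalization, whose part in these correlations was not tested.

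**Figure D3:**
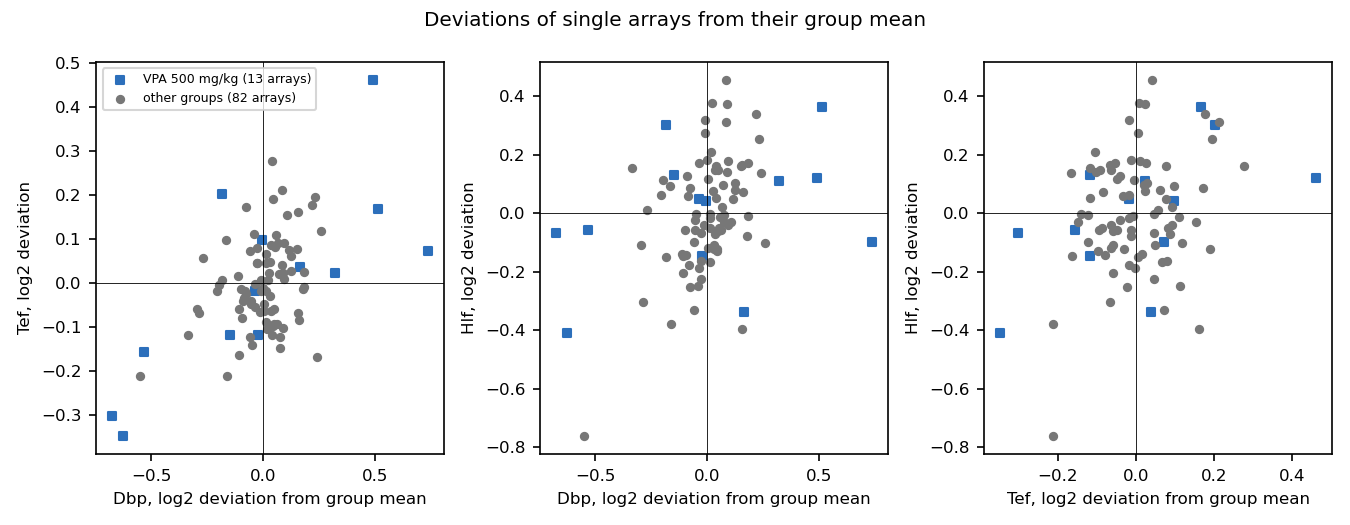
Log2 deviation of each array from its group mean for the pairs Dbp and Tef, Dbp and Hlf, and Tef and Hlf (axes). Squares are the 13 arrays of valproic acid at 500 mg/kg and circles the 82 others. Arrays low in Dbp tend to be low in Tef (r = 0.54) and in Hlf (r = 0.36). Over the 82 circles alone, r is 0.35 for Dbp and Tef and 0.45 for Dbp and Hlf.

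The genes whose pattern was most like each member were found by Pearson's r among 8060 genes with a mean at or above the array median, as a description with no test. Over the 21 group means, Dbp was most like Gys2, liver glycogen synthase (r = 0.97), Usp2, a ubiquitin protease known as a clock output (0.97), Bri3, Clmn and Uox, urate oxidase (0.94 each). It was least like Ppa1 (-0.95), Litaf (-0.94) and Lbp, lipopolysaccharide binding protein (-0.92). Without the 3 groups of valproic acid at 500 mg/kg, r was 0.87 for Gys2 and 0.85 for Usp2, but only -0.41 for Lbp. Tef held place 14 in this order of likeness to Dbp (0.90) and Hlf place 442 (0.67). Tef was most like Marveld1 (0.93), Dbp (0.90), Ppat (0.90), Usp2 (0.90) and Wwp1 (0.89), and least like Lrfn3 (-0.92), Caprin1 (-0.91) and Atox1 (-0.87). Hlf was most like Pdxk (0.86), Xpot (0.85), Slc20a1 (0.84), Cldn12 (0.83) and Il15ra (0.82), and least like Kpnb1 (-0.87), Slc45a4 (-0.84) and Capn2 (-0.83).

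Within groups, over the deviations of 95 arrays, Gys2 was again most like Dbp (0.76) and also most like Tef (0.63). The others nearest to Dbp were Usp2 (0.66), Ciart, a clock repressor gene (0.66), Pcsk4 (0.65) and Ppara (0.65). The others nearest to Tef were Wee1, a cell cycle kinase gene under clock control (0.60), Marveld1 (0.56), Homer2 (0.56) and Usp2 (0.55). Hlf was nearest to Plpp3 (0.70), Ehmt1 (0.60), Pbld1 (0.60), Nr2f2 (0.60) and Nox4 (0.59), and none of these 5 stood among the nearest 5 of Dbp or Tef. Usp2 and Wee1 held places 36 and 38 of 8060 for Hlf (0.48 each).

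In valproic acid livers on day 1, listed clock genes on both sides of the loop changed with Dbp and Tef. Of 5 measured activators and genes known to peak when Dbp is low, 3 rose and 0 fell, with a median log2 fold change of 0.75. Over all genes 7.99% were called higher and 7.73% lower that day, with a median of 0.01. Nfil3, the D-box repressor, rose by 1.75 ± 0.22 (adjusted p = 1.9e-09, limma), Clock by 0.81 ± 0.14 (adjusted p = 2.9e-06, limma) and Arntl, whose mean of 2.78 is below the array median, by 0.75 ± 0.17 (adjusted p = 0.00063, limma). Cry1 and Npas2 were at -0.22 and 0.04 and did not pass. Of 11 clock repressors and E-box targets that peak near Dbp, 6 fell and 0 rose, with a median of -0.56. Usp2 was lowest at -2.07 ± 0.26 (adjusted p = 8.8e-10, limma), followed by Ciart (-1.51), Wee1 (-1.40), Bhlhe40 (-0.65), the nuclear receptor gene Nr1d2 (-0.57) and Per2 (-0.56). Per1, Per3, Cry2, Nr1d1 and Bhlhe41 lay between -0.20 and 0.16 and did not pass.

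On day 4 of valproic acid, Clock rose by 0.61 ± 0.14 (adjusted p = 0.0036, limma) and was the only 1 of the 5 activators and genes high when Dbp is low to pass, with Nfil3 at 0.54 and Arntl at 0.53. Of the 11 repressors and E-box targets 4 fell, namely Ciart (-1.77), Usp2 (-0.92), Wee1 (-0.77) and Per2 (-0.69), and 0 rose. The list medians were 0.53 and -0.29, and over all genes 1.32% were called higher and 1.04% lower, with a median of 0.00 to 2 decimals. In amiodarone livers on day 4, 1 of the 11 fell, Bhlhe40 (-0.69 ± 0.21, adjusted p = 0.027, limma), with a median of -0.34, and of the 5 activators and genes high when Dbp is low 1 fell, the repressor gene Cry1 (-0.59 ± 0.19, adjusted p = 0.043, limma). Over all genes 4.01% were called higher and 2.2% lower, with a median of -0.01. Clock was at 0.33, Nfil3 at -0.19, Ciart at -0.86 and Usp2 at -0.66 and did not pass.

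**Figure D4:**
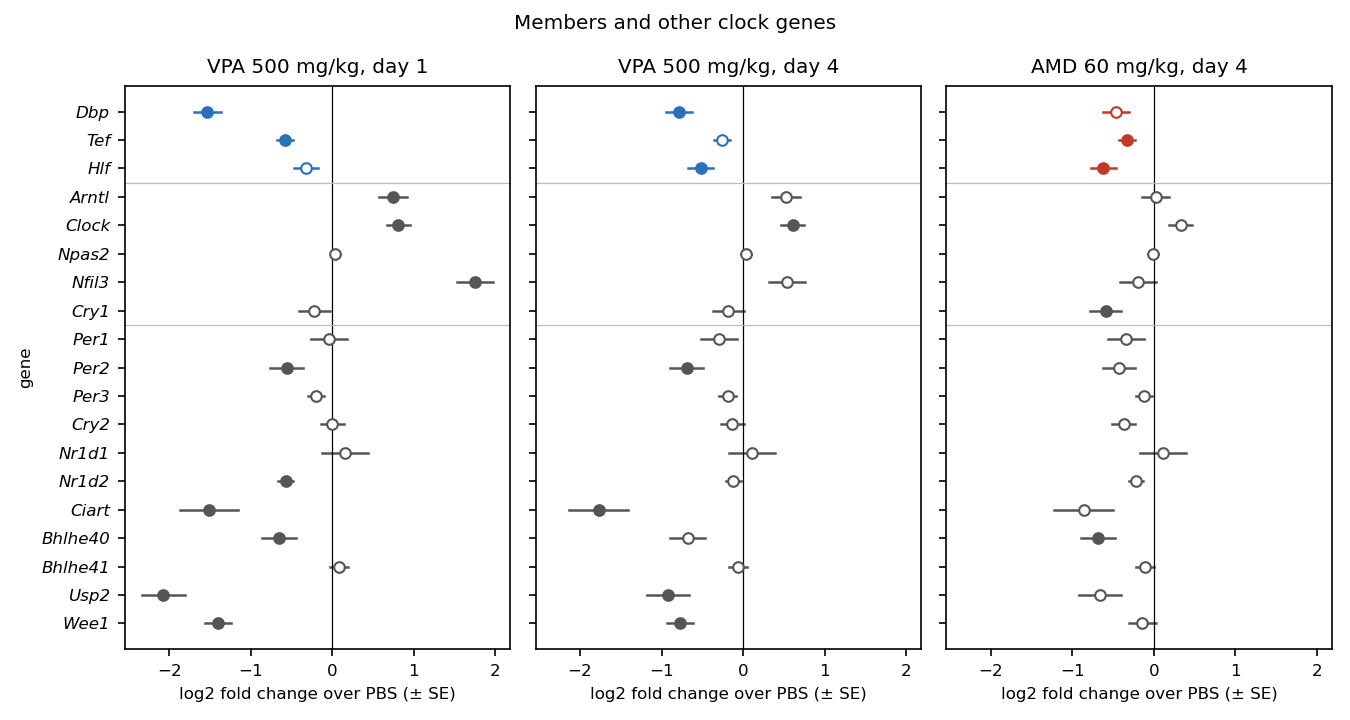
Log2 fold change over PBS (horizontal axes, lines are ± SE) of the 3 members (top), 5 clock activators and genes high when Dbp is low (middle) and 11 repressors and E-box targets (bottom). Columns are valproic acid at 500 mg/kg on days 1 and 4 and amiodarone at 60 mg/kg on day 4, and filled points passed at an adjusted p under 0.05. On day 1 of valproic acid Nfil3 (1.75) and Usp2 (-2.07) lie farthest from 0.

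Genes listed as dependent on the PAR bZIP factors did not move one way with them. Of the 12 listed, 9 were measured. In day 1 valproic acid livers 3 fell and 0 rose, with a median log2 fold change of -0.53, beside 7.73% of all genes called lower and a median of 0.01. They were Cyp7a1, the rate-limiting enzyme of bile acid synthesis, whose link to DBP is known from rat (-1.95 ± 0.47, adjusted p = 0.0011, limma), the acyl-CoA thioesterase gene Acot1 (-1.16 ± 0.34, adjusted p = 0.0098, limma) and Ppara, the fatty acid-sensing nuclear receptor gene (-0.53 ± 0.14, adjusted p = 0.0031, limma). Acot3 (-1.67), Acot4 (-0.79), Acot2 (-0.19), Alas1 (-0.32), Cyp2b10 (-0.32) and Nr1i3 (-0.23) did not pass.

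In day 4 valproic acid livers 3 of the 9 rose and 1 fell, with a median of 0.38, beside 1.32% of all genes called higher and 1.04% lower. Cyp2b10, a detoxifying cytochrome P450 gene, rose by 3.30 ± 0.37 (adjusted p = 6.3e-10, limma), Acot1 by 1.45 and Acot2 by 0.85, while Ppara fell (-0.48 ± 0.14, adjusted p = 0.045, limma). In amiodarone livers on day 4, 5 rose and 0 fell, with a median of 1.42, beside 4.01% of all genes called higher and a median of -0.01. Acot1 rose by 3.48 ± 0.34 (adjusted p = 8.1e-13, limma), Acot2 by 2.45, Acot3 by 2.19, Cyp2b10 by 1.71 and Acot4 by 1.42. Ppara was at -0.08 and Nr1i3 at 0.07 and did not pass.

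The C/EBP genes encode bZIP relatives that can bind related sequences, and 4 of the 5 listed were measured. On day 1 of valproic acid Cebpd rose by 1.51 ± 0.23 (adjusted p = 2.8e-07, limma) and Cebpb by 0.61 ± 0.18 (adjusted p = 0.0096, limma), while Cebpa fell (-0.36 ± 0.11, adjusted p = 0.011, limma). Cebpa was again lower on day 4 of valproic acid (-0.42 ± 0.11, adjusted p = 0.015, limma) and the other 3 did not pass. None of the 4 passed on day 4 of amiodarone, and Cebpa was at -0.28 (adjusted p = 0.12, limma). Of all genes, 15.7% and 2.36% were called either way on days 1 and 4 of valproic acid, and 6.21% on day 4 of amiodarone.

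The tissue carried the markers of liver cells on every array, since 5 hepatocyte markers averaged between 12.41 and 12.90 per array. Fewer cells of a type and less RNA per cell cannot be told apart in these bulk samples. With the falls on day 1 of valproic acid, 2 of 3 measured neutrophil markers were called higher, with array means of 3.40 to 5.54 in valproic acid livers and 2.91 to 3.05 in PBS livers. Of 5 endothelial markers 1 was higher there, and of 5 stellate cell markers 1 was higher and 1 lower. Of 2 erythrocyte markers 0 were called that day, with array means of 4.68 to 4.99 in valproic acid livers and 5.09 to 5.34 in PBS livers. With those on day 4 of valproic acid, 4 of 6 Kupffer cell markers were called higher, with array means of 6.86 to 7.57 in valproic acid livers and 5.96 to 7.41 in PBS livers. There 1 of 5 endothelial and 1 of 5 stellate cell markers were higher too, and 1 of 2 erythrocyte markers was lower, with array means of 4.49 to 4.92 in valproic acid livers and 5.15 to 5.23 in PBS livers. With those on day 4 of amiodarone no marker of the 6 Kupffer cell or 3 neutrophil genes was called, and 1 of 2 erythrocyte markers was lower, with array means of 4.75 to 4.94 in amiodarone livers and 5.15 to 5.23 in PBS livers. The part of these cells in the levels of Dbp, Tef and Hlf was not tested. Beside these marker counts, 7.99% of all genes were called higher and 7.73% lower on day 1 of valproic acid. The shares were 1.32% and 1.04% on its day 4, and 4.01% and 2.2% on day 4 of amiodarone. Of the 5 hepatocyte markers 1 was higher and 2 lower on day 1 of valproic acid, 0 were called on its day 4, and 1 was lower on day 4 of amiodarone. Hepatocyte marker means overlapped between treated and PBS livers in these 3 comparisons, at 12.68 to 12.88 and 12.63 to 12.90 on day 1 of valproic acid, 12.59 to 12.73 and 12.67 to 12.79 on its day 4, and 12.55 to 12.74 and 12.67 to 12.79 on day 4 of amiodarone.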

How the data were processed

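The values used are log2 expression levels deposited by the authors, which come from RMA (robust averaging of probes over arrays) per the submitters' processing notes. Its version, the probe definition and the genome build are not given in the sources used here. There were 17306 probe sets, of which 16464 with 1 gene symbol were tested and matched RefSeq by Entrez ID, while 842 without a symbol were not used. Levels ran from 1.68 to 13.9. Correlations between arrays were 0.977 to 0.996, and no arrays were identical. Arrays carry no counts, so the number of arrays limits the precision. Groups follow the labels.

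In limma 3.58.1 (R 4.3.3), a mean per group over all 95 arrays left 74 residual degrees of freedom, with 39 comparisons, each adjusted over all genes by Benjamini-Hochberg and called under 0.05. Dose trends are slopes over dose rank on day 11. The fit was tested on simulated data. Covariation used 100000 permutations within groups. Motifs were searched with Python 3.11.15, and figures drawn with matplotlib 3.10.9. The members, lists, tests and alternatives were chosen with earlier results of these data known. The members are named whatever their values, listed genes only in comparisons where a member is called, and like-pattern genes by rank (5 highest and 3 lowest over group means, 5 highest within groups, without predicted genes). Por, Cyp2a4, Cyp2a5 and Cebpe were not analysed here. Alternative settings were a fit of the compared arrays alone, quality weights for arrays, dim genes left out, quantile normalizing again, centring on the median, blocks of 24 sample numbers, a variance trend with robust estimation, and leaving out each array. Added after seeing the data were the covariation and likeness without valproic acid at 500 mg/kg.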

Additional observations from a re-analysis of the deposited data

Results flagged for a closer look

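In 6 of the 63 combinations of member and group, 1 array stood apart from the rest of its group by Dixon's ratio at the 95% level, where chance gives about 1 in 20. Dbp was low at 8.74 on array 024 of tetracycline at 14.8 mg/kg, where the other arrays of the group lay between 9.08 and 9.13. Tef was high at 5.85 on array 047 of tetracycline at 44 mg/kg, where the others lay between 5.71 and 5.75. Hlf was low at 5.99 on array 013 of amiodarone at 60 mg/kg on day 1 (others 6.37 to 6.43), at 5.86 on array 025 of PBS on day 1 (others 6.33 to 6.42) and at 5.84 on array 049 of valproic acid at 500 mg/kg on day 11 (others 6.30 to 6.38). Hlf was high at 6.64 on array 074 of tetracycline at 14.8 mg/kg (others 6.20 to 6.30).

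In 5 cases the effect of a treatment differed between days or compounds by a test of the difference itself. The Dbp log2 fold change at 500 mg/kg of valproic acid differed by 0.75 between days 4 and 1 and by 1.23 between days 11 and 1, and that of Tef by 0.39 between days 11 and 1. On day 1, amiodarone at 60 mg/kg was above valproic acid at 500 mg/kg by a log2 difference of 1.55 for Dbp and 0.67 for Tef.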

How the results depend on the processing

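No paired analysis was possible because the sample numbers are unique, so groups share no replicate numbers. The Dbp and Tef falls on day 1 of valproic acid and the Hlf fall on day 4 of amiodarone kept their direction and passed under every alternative run. On day 4 of amiodarone, Dbp passed with array quality weights (-0.45), in a fit of only the arrays compared (-0.47), without genes whose mean is below the median (-0.47) and after quantile normalizing again (-0.52), and Tef did not pass with blocks of sample numbers (-0.28). On day 4 of valproic acid, Dbp did not pass in a fit of only the arrays compared (-0.79, adjusted p = 0.084, limma). Hlf there did not pass in that fit (-0.52), with arrays centred on their median (-0.52) or with blocks (-0.49). In these cases the cause was not tested, beyond the fewer arrays or genes of some fits.

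With 1 array left out, log2 fold changes on day 4 of valproic acid ran from -0.96 to -0.56 for Dbp and from -0.64 to -0.41 for Hlf, that of Hlf on its day 1 from -0.46 to -0.27, that of Tef on its day 11 from -0.30 to -0.10, and that of Tef on day 4 of amiodarone from -0.37 to -0.28. Over the 27 differences at the highest doses, 222 of 234 fits with 1 array left out and 180 of 189 others kept the side of the threshold. The difference of Dbp between days 4 and 1 of valproic acid also did not pass with array quality weights (0.66) or only the arrays compared (0.75), and that of Tef between days 11 and 1 with only the arrays compared (0.39) or quantile normalizing again (0.36). Hlf between the drugs on day 1 passed with array quality weights (0.43), and Hlf in the tetracycline vehicle, days 4 against 1, with those weights (-0.56) or without dim genes (-0.53). The Tef slope over valproic acid doses passed without array 028 (-0.08).

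Counts of called genes moved by over 1.5 times under some alternatives. In a fit of only the arrays compared they fell to 32 (131 over all arrays, and likewise in parentheses after each count) for amiodarone at 60 mg/kg on day 1, 0 (53) at 20 mg/kg, 1448 (2589) and 251 (389) for valproic acid at 500 mg/kg on days 1 and 4, 214 (701) at 250 mg/kg and 12 (107) for tetracycline at 133 mg/kg on day 1. For differences between days in that fit they were 31 (89) for days 4 against 1 of amiodarone and 488 (1000) for those of valproic acid. With array quality weights they rose to 247 (107) for tetracycline at 133 mg/kg on day 1, 25 (0) on its day 4, 20 (4) at 44 mg/kg, and 477 (129) for days 4 against 1 of its vehicle. Without dim genes they were 551 (339) for days 11 against 4 of valproic acid. Leaving out 1 array gave 80 to 133 (131) for amiodarone at 60 mg/kg on day 1, 219 to 382 (389) for valproic acid at 500 mg/kg on day 4, 411 to 704 (701) at 250 mg/kg, 186 to 395 (339) for its days 11 against 4, 0 to 140 at 20 mg/kg of amiodarone, 18 to 182 for tetracycline on day 1 and 8 to 178 for days 4 against 1 of its vehicle. Of the smaller counts, it gave 41 to 103 (89) and 8 to 29 (18) for days 4 and 11 against 1 of amiodarone, 0 to 19 (9) at 125 mg/kg of valproic acid, 0 to 17 (4) at 44 mg/kg of tetracycline, and 0 to 36 (15) and 0 to 21 (2) between the vehicles on days 1 and 4.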
